A study of Mus musculus with 16 samples.

Results

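Acp5, Fscn1, Hsf1, Ndc80 and Vsig4 are the pro-invasion candidate genes that the study of these mouse melanomas followed up. Every probe set whose only gene symbol was one of these 5 names was taken. That gave 7 of 22626 probe sets, and 4 of the 12393 genes with a probe set. Fscn1 had 4 probe sets and Acp5, Ndc80 and Vsig4 had 1 each. Hsf1 matched no probe set and is not analysed here. The arrays were of the Affymetrix M430A_2 type, which reads each transcript through groups of short oligonucleotide probes called probe sets. Signal is given throughout as log2, after quantile normalization across the 16 arrays.

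The study profiled skin melanomas of tetracycline-inducible mouse models and asked which genes went with the ability to metastasise. The 6 iMet arrays hold melanomas of mice carrying Tyr-rtTA and Tet-Met, and the 6 iHRAS* arrays hold melanomas of mice carrying Tyr-rtTA and Tet-HRASV12G. Both tumour groups are Ink4a/Arf-/-, so that deletion is shared and was not compared. The 4 remaining arrays are labelled melanocytes with no disease, and the labels give them no genotype. The tyrosinase promoter drives the transactivator in both models, and ages are not stated in the sources used here. The sample labels speak of isolated melanoma cells, whereas the design text speaks of RNA from the melanomas. No label ties the arrays of a group to different animals, and the p-values here measure only the spread between these samples, which may be technical.

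The candidate genes act in unrelated parts of the cell. Ndc80 encodes a subunit of the complex that ties kinetochores to spindle microtubules in mitosis, and its transcript rises in cycling cells. Fscn1 encodes fascin, which bundles actin filaments in filopodia and other protrusions of moving cells. Acp5 encodes tartrate-resistant acid phosphatase, a secreted and lysosomal enzyme best known in osteoclasts and activated macrophages. Vsig4 encodes a complement receptor of the immunoglobulin family that is known from tissue-resident macrophages. Hsf1 encodes the main transcription factor of the heat shock response.

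Markers of other cell types differed between the groups. The macrophage gene C1qa had 12.09 to 12.87 in iMet tumours and 10.47 to 12.55 in iHRAS* tumours, against 1.43 to 2.66 in melanocyte-labelled samples. The mean of 23 macrophage genes was 9.24 to 9.83 in iMet tumours and 7.53 to 9.19 in iHRAS* tumours, and 4.22 to 4.62 in melanocyte-labelled samples. The mean of 12 endothelial genes was 7.22 to 9.06 in iMet tumours and 6.67 to 7.76 in iHRAS* tumours, and 3.93 to 5.04 in melanocyte-labelled samples. Of the 12, 11 were called higher in each model than in melanocytes, where 15.9% of all genes were in iMet and 17.8% in iHRAS*. Of the 11, 9 in iMet and 8 in iHRAS* were above the filter level, the 40th percentile of signal, on 0 of 4 melanocyte arrays. These passed the filter on low signal only through the tumours. Of 6 Schwann and neural crest genes tested, 5 were called lower in iMet than in iHRAS* tumours, where 9.38% of all genes were, with a median difference of -3.71. Of the 5, 3 (Foxd3, Sox2 and Ngfr) were above that level on 0 of 6 iMet arrays, and so passed the filter only through iHRAS*. The pigment genes Tyr, Tyrp1 and Dct were above the 40th percentile of signal, 6.21, on 0 of 6 iMet arrays. They were above it on 1, 1 and 2 of 6 iHRAS* arrays and on 0 of the 4 arrays labelled melanocytes. Pmel and Pax3 went the other way, above it on 4 of 4 melanocyte arrays. Of 13 melanocyte genes, 4 were above it on each melanocyte array, 3 to 5 on iMet arrays and 4 to 10 on iHRAS* arrays. Sox10, a neural crest factor kept in melanocytes, had 6.08 to 7.66 in iMet tumours and 9.45 to 11.44 in iHRAS* tumours, against 9.04 to 10.41 in melanocyte-labelled samples. The keratinocyte gene Krt14 averaged 12.73 ± 0.92 and the fibroblast gene Col1a1 12.60 ± 1.30 in melanocyte-labelled samples (SD, n = 4). With these mixed markers, the samples are called melanocytes by their label only. The mean of 15 keratinocyte genes was 4.39 to 8.75 in iMet tumours and 8.44 to 10.21 in iHRAS* tumours, and 7.30, 8.96, 6.46 and 8.89 on melanocyte arrays 1 to 4. Results were also computed without melanocyte arrays 1 and 3 and without arrays 2 and 4, as libraries that stand apart. Met, the driver of the iMet model, had 8.39 to 9.98 in iMet tumours and 5.42 to 7.46 in iHRAS* tumours, against 7.25 to 9.13 in melanocyte-labelled samples. Xist, read from X chromosomes in female cells, had 0.58 and -0.12 on iHRAS* arrays 5 and 6, and 9.60 to 12.01 on the other 14 arrays. The Y-linked gene Eif2s3y had 6.40 and 7.20 on iHRAS* arrays 5 and 6, and -1.50 to 1.32 on the other 14 arrays. Sex is not given in the labels. iHRAS* arrays 2 and 3 had the lowest macrophage means, 7.77 and 7.53.

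Between the tumour models, 4 of the 7 candidate probe sets passed the test as higher in iMet and 0 as lower, by limma with Benjamini-Hochberg adjusted p under 0.05 over 12679 probe sets. None of the 7 had a negative difference. Over all of these, 19.3% were called, 10.9% as higher and 8.34% as lower. Because the study picked the genes with these tumours, that count and its direction are not independent evidence. Of these 7, 4 read Fscn1, so they are not 7 separate genes. The median difference over all probe sets tested was 0.06. Against melanocytes, iMet tumours had 2 candidate probe sets higher and 3 lower, where 32.6% of 13823 probe sets were called, 14.7% as higher and 17.9% as lower. iHRAS* tumours had 1 higher and 5 lower, where 38.0% were called, 15.6% as higher and 22.4% as lower. The tumour groups share the 4 melanocyte arrays, so their differences from melanocytes are not independent of each other. All 7 probe sets passed the filter on low signal, but Ndc80 passed it in the tumours only through iMet, where 6 of 6 arrays exceeded the 40th percentile, against 0 of 6 iHRAS* arrays.

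**Figure D1:**
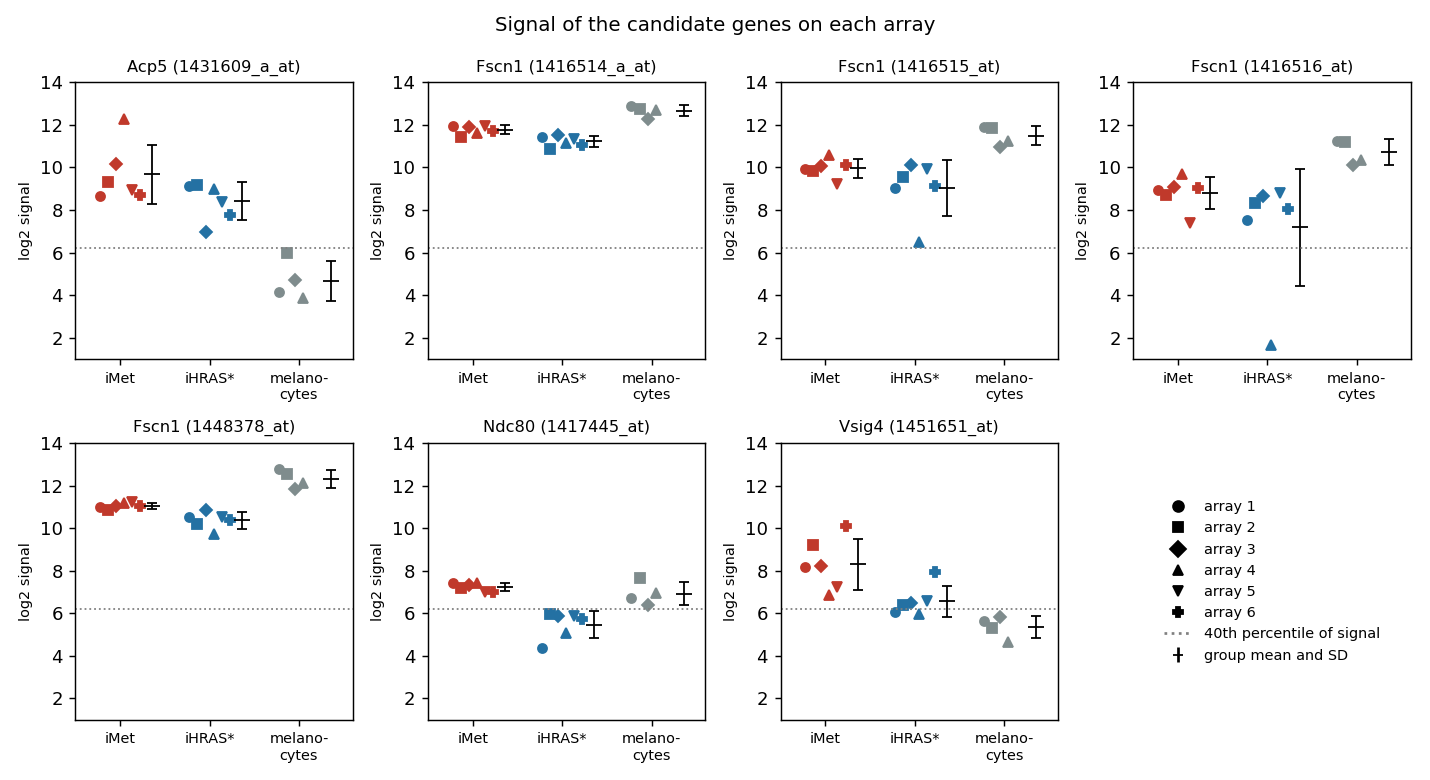
Log2 signal (vertical axis) of each candidate probe set on every array, with iMet tumours left of iHRAS* tumours and melanocytes at the right, the array number as the symbol, and the group mean with its SD beside the points. Ndc80 is separated between the tumour models, Fscn1 is highest in melanocytes, and Acp5 and Vsig4 are lowest there.

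**Figure D2:**
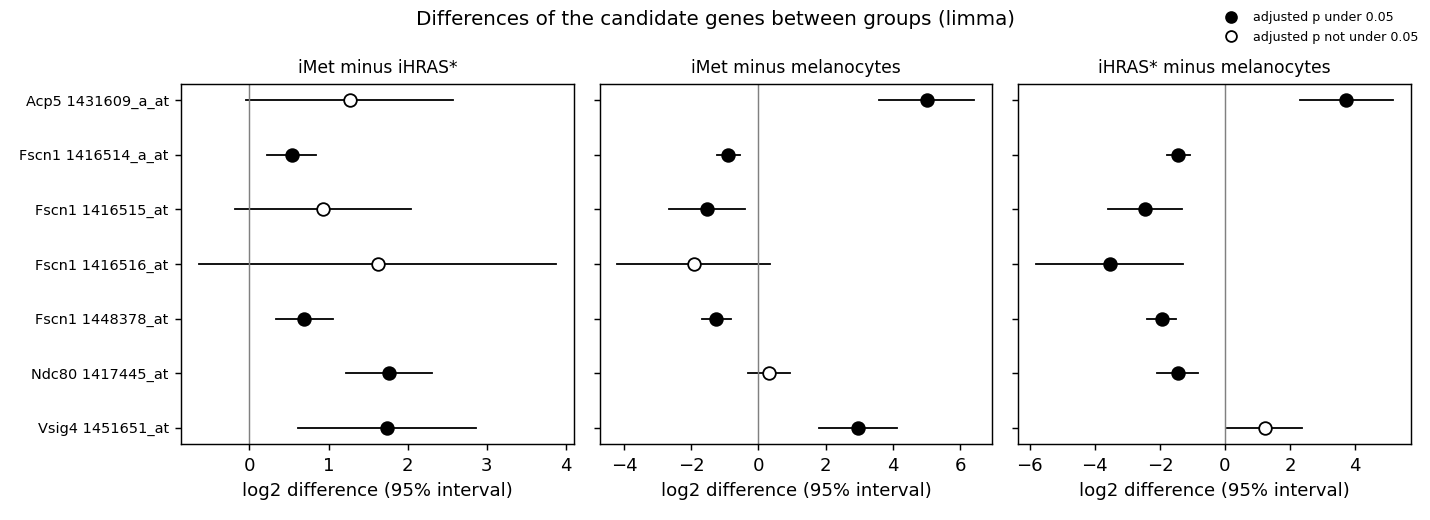
Difference in log2 signal (horizontal axis, with its 95% interval) of each candidate probe set in the 3 comparisons, with filled points where the limma adjusted p is under 0.05. The 4 filled points of iMet minus iHRAS* are Ndc80, Vsig4 and Fscn1 by probe sets 1416514_a_at and 1448378_at.

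Ndc80 was higher in iMet than in iHRAS* tumours. Its signal had a lowest value of 7.02, a median of 7.26 and a highest value of 7.45 in iMet tumours. In iHRAS* tumours it had a lowest value of 4.36, a median of 5.80 and a highest value of 5.96. Every iMet tumour lay above every iHRAS* tumour, as did 10.0% of all probe sets in one direction or the other. The difference was 1.77 ± 0.25 (SE, adjusted p = 0.00076, and 0.00234 with no filter on low signal). All 6 iHRAS* arrays were below the 40th percentile, so its size rests on low signal on one side and no fold is given. Melanocyte arrays 1 to 4 read 6.71, 7.64, 6.39 and 6.95. iHRAS* tumours lay below all of them, by a difference of -1.45 ± 0.30 (adjusted p = 0.00168), where 24.8% of all probe sets did not overlap. iMet tumours overlapped melanocytes, with a difference of 0.32 ± 0.30 and an interval of -0.31 to 0.95 (adjusted p = 0.434). The order was thus iMet, melanocytes and iHRAS*, and the step between iMet and melanocytes was within the spread. Without melanocyte arrays 1 and 3 that step was -0.055 (adjusted p = 0.928).

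The other subunits of the Ndc80 complex are Nuf2, Spc24 and Spc25, and Spc24 had no probe set. Nuf2, the coiled-coil partner of Ndc80, had 7.73 to 8.68 in iMet tumours and 6.62 to 7.56 in iHRAS* tumours, without overlap. Its difference was 1.08 ± 0.20 (adjusted p = 0.00337). Spc25, which anchors the complex on the centromere side, had 7.33 to 8.25 in iMet tumours and 5.14 to 7.20 in iHRAS* tumours, also without overlap. Its difference was 1.46 ± 0.29 (adjusted p = 0.00486). Against melanocytes, Nuf2 and Spc25 differed by 0.34 ± 0.26 and 0.35 ± 0.33 in iMet tumours (adjusted p = 0.328 and 0.433). In iHRAS* tumours they fell by 0.74 ± 0.26 and 1.11 ± 0.33 (adjusted p = 0.0353 and 0.0155).

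Ndc80, Nuf2 and Spc25 all differed between the models. Promoter windows of Ndc80 and Spc25 are shown because they hold the letters TTTGAA on either strand, and that of Nuf2, without a match, is not shown. Each window shown is on the minus strand of GRCm38.p6. The RefSeq promoter table it comes from runs from 250 bases before to 50 after the start of a gene. Ndc80 is given whole, at chr17:71526808-71527107, and Spc25 as its last 150 bases, at chr2:69206164-69206313. Capitals mark TTTGAA or its reverse complement TTCAAA, the core of the cell cycle homology region, and in Ndc80 also TGACGTCA, the cAMP response element.
Ndc80: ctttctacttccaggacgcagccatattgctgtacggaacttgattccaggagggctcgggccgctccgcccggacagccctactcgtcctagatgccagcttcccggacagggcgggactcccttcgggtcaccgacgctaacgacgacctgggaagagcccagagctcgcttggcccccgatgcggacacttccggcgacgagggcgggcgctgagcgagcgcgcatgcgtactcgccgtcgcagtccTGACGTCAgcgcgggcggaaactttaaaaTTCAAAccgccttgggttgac
Spc25: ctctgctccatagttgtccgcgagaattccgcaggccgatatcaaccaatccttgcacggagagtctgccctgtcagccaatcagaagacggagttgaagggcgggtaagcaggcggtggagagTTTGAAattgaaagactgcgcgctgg
The TTTGAA match begins at base 30 in Ndc80 and at base 25 in Spc25, counted from the first transcribed base as 1. The cAMP element of Ndc80 begins at base 1. Searched on both strands, TTTGAA was found in 17.9% of all 32851 promoters. By gene, over any of its promoters, it was found in 15 of 31 kinetochore and checkpoint genes (48.4%), against 20.2% of all 27025 genes. The promoter of Nuf2 held no match in this window, and TGACGTCA was found in 1.79% of all promoters. A match is a run of letters and not a measured site.

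Most genes of the kinetochore and spindle checkpoint list were called higher in iMet tumours, as Ndc80 was. Of its 36 genes, Ndc80 itself left out, 30 had a probe set and 29 were tested between the tumour models. In iMet tumours 21 of the 29 were called higher than in iHRAS* tumours and 0 lower, where 20.1% of all genes were called by their brightest probe set, 10.7% as higher and 9.38% as lower. The median difference of the list was 1.02, against 0.03 over all genes. At an unadjusted p under 0.05, 22 were higher and 0 lower. Cenpf, a kinetochore protein of late G2 and mitosis, had 9.10 to 9.64 in iMet tumours, against 7.06 to 8.42 in iHRAS* tumours, without overlap (difference 1.56 ± 0.20, adjusted p = 0.00039). Cenpk, of the inner kinetochore, differed by 1.67 ± 0.22 (adjusted p = 0.000522). Of the 21, Cenpk and the kinesin Kif18a passed the filter only through iMet, with 0 of 6 iHRAS* arrays above the 40th percentile. With no filter 21 of 30 genes were called higher and 0 lower. Hmmr, a spindle-associated protein, differed by 1.14 ± 0.17 (adjusted p = 0.00107). Ttk, the checkpoint kinase also called Mps1, differed by 1.20 ± 0.18 (adjusted p = 0.00115). Without iHRAS* arrays 5 and 6, the pair low in Xist, 16 were called higher and 0 lower.

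Against melanocytes, few genes of the list were called in iMet tumours, and more were called lower in iHRAS* tumours. In iMet tumours 3 of 30 genes were called higher and 1 lower, where 34.1% of all genes were called, 15.9% as higher and 18.1% as lower, and the median difference was 0.34. The higher genes were Cenpf, Hmmr and Ttk and the lower one was Mis12, named after their values were seen. In iHRAS* tumours 0 were higher and 10 lower, where 38.5% of all genes were called, 17.8% as higher and 20.7% as lower. The median was -0.55. Of the 10, Cenph and Cenpk were above the 40th percentile on 0 of 6 iHRAS* arrays, and so passed the filter only through the other groups. Melanocyte array 2 held the highest list mean of its group, 8.76, against 7.61 to 7.80 on the other melanocyte arrays. Without that array 9 of 30 genes were higher and 0 lower in iMet tumours, and 0 were higher and 4 lower in iHRAS* tumours. Without melanocyte arrays 1 and 3, 0 were called in either direction in iMet tumours by limma, with 4 higher and 2 lower at an unadjusted p under 0.05. Without arrays 2 and 4, 0 were higher and 2 lower in iHRAS* tumours. Without iHRAS* array 3, 0 were higher and 15 lower in iHRAS* tumours, and without iHRAS* arrays 5 and 6, 0 and 5. In bulk samples, fewer cells of a type and less RNA per cell cannot be told apart.

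**Figure D3:**
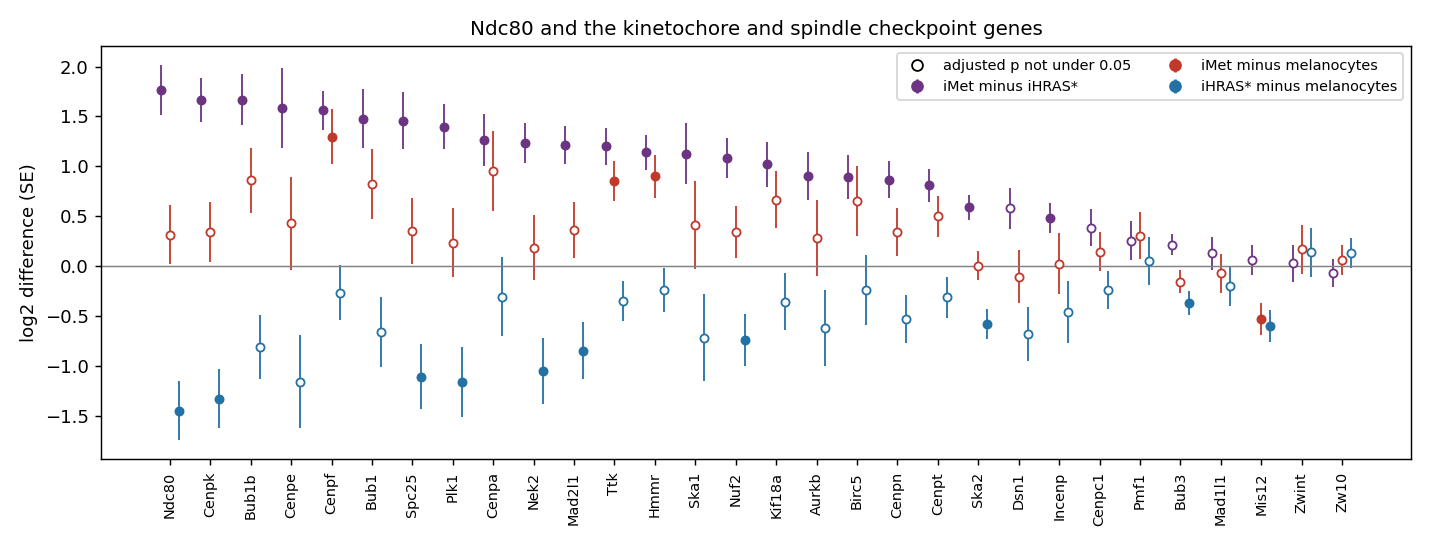
Difference in log2 signal with its SE (vertical axis) for Ndc80 and the kinetochore and checkpoint genes tested between the tumour models (horizontal axis, ordered by iMet minus iHRAS*), in the 3 comparisons, with open points where the limma adjusted p is not under 0.05. iMet minus iHRAS* is above 0 for 28 of the 29 listed genes and for Ndc80, whereas iHRAS* minus melanocytes is mostly below 0.

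Fscn1 was lower in both tumour models than in melanocytes, and on some of its probe sets higher in iMet than in iHRAS* tumours. On probe set 1448378_at it had 10.86, 11.04 and 11.22 in iMet tumours as lowest, median and highest value, 9.71, 10.45 and 10.85 in iHRAS* tumours, and 12.76, 12.53, 11.85 and 12.12 on melanocyte arrays 1 to 4. The 3 groups did not overlap, although the nearest arrays of the tumour models, 10.86 in iMet and 10.85 in iHRAS*, lay close together. iMet exceeded iHRAS* by 0.69 ± 0.17 (1.61-fold, adjusted p = 0.0132). On probe set 1416514_a_at it had 11.45, 11.79 and 11.96 in iMet tumours, 10.88, 11.26 and 11.54 in iHRAS* tumours, and 12.90, 12.76, 12.29 and 12.70 in melanocytes. Of the iMet tumours, 5 of 6 lay above every iHRAS* tumour, and the difference was 0.53 ± 0.14 (1.45-fold, adjusted p = 0.0201). Centring each array on its median took that difference to 0.43 (adjusted p = 0.146), and leaving out iHRAS* arrays 5 and 6 to 0.51 (adjusted p = 0.0602).

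The other Fscn1 probe sets held 1 tumour far below the rest. On 1416515_at, iMet tumours had 9.22, 10.01 and 10.57 as lowest, median and highest value, iHRAS* tumours had 6.48, 9.34 and 10.11, and melanocyte arrays 1 to 4 had 11.89, 11.84, 10.98 and 11.26. On 1416516_at, iMet tumours had 7.40, 8.98 and 9.67, iHRAS* tumours had 1.66, 8.21 and 8.81, and melanocyte arrays had 11.26, 11.21, 10.10 and 10.35. Both lowest values, 6.48 and 1.66, belonged to iHRAS* array 4, and the tumour models overlapped. Their differences between iMet and iHRAS* were 0.93 ± 0.51 (adjusted p = 0.222, interval -0.19 to 2.04) and 1.62 ± 1.04 (adjusted p = 0.293, interval -0.64 to 3.88). Without iHRAS* array 4 they were 0.42 (adjusted p = 0.285) and 0.51 (adjusted p = 0.347). On that array 1448378_at was also the lowest of the iHRAS* tumours, at 9.71, whereas 1416514_a_at read 11.16, within the group. In the tumours, with group means taken off, 1416515_at and 1416516_at correlated at r = 0.98 over 12 arrays, and 1416514_a_at correlated with them at 0.10 and 0.04. These probe sets read 1 gene, so they are not separate tests of it.

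All 12 tumours lay below all 4 melanocyte arrays on each of the 4 Fscn1 probe sets. In iMet tumours the differences from melanocytes ran between -1.93 ± 1.07 on 1416516_at (adjusted p = 0.179) and -0.90 ± 0.16 on 1416514_a_at (1.87-fold lower, adjusted p = 0.000696). The difference on 1448378_at was -1.25 ± 0.21 (adjusted p = 0.000347), and that on 1416515_at was -1.53 ± 0.53 (adjusted p = 0.0389). Leaving out any of 8 single arrays ended the call on 1416515_at (iMet arrays 1, 2, 3, 5 or 6, or melanocyte array 1, 2 or 4), with adjusted p up to 0.103. Without iHRAS* array 4, which enters the shared estimate of the spread, 1416516_at was called (adjusted p = 0.00179). In iHRAS* tumours all 4 probe sets were called lower, from -3.55 ± 1.07 on 1416516_at (adjusted p = 0.0165) to -1.43 ± 0.16 on 1416514_a_at (2.70-fold lower, adjusted p = 1.34e-05). Without iHRAS* array 4 the difference on 1416516_at was -2.44 (adjusted p = 0.000468). Groups failed to overlap for 26.9% of all probe sets between iMet and melanocytes and for 24.8% between iHRAS* and melanocytes.

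The Fscn1 promoter window is shown for the element it shares with Ndc80. It lies on the plus strand of GRCm38.p6 at chr5:142960105-142960404 in the RefSeq table, with TGACGTCA, which begins 45 bases before the start site, and the TATA box letters TATAAA, 31 bases before it, in capitals.
Fscn1: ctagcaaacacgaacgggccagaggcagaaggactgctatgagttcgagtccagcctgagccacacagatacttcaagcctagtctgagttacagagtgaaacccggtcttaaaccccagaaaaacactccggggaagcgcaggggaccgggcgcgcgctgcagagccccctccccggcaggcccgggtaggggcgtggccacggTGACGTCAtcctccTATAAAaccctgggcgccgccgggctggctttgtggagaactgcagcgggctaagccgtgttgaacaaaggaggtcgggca
TATAAA was found in 13.6% of all promoters, on either strand.

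Filopodia and actin-bundling genes are the partners of Fscn1 by function. Of 30 genes, 25 had a probe set and 21 were tested between the tumour models, of which 1 was higher and 1 lower in iMet, where 20.1% of all genes were called, with a median difference of -0.04. Swap70, an actin-binding exchange factor, rose in iMet tumours by 0.65 ± 0.18 (adjusted p = 0.0244), and the formin Diaph1 fell by 0.46 ± 0.10 (adjusted p = 0.00955). Against melanocytes, 1 of 22 was higher and 6 lower in iMet tumours, where 34.1% of all genes were called, and 3 were higher and 6 lower in iHRAS* tumours, where 38.5% were. Lcp1, the actin bundler of white blood cells, was the higher gene in iMet (5.82 ± 0.66, adjusted p = 1.37e-05), and it too was named after its values were seen. It was above the 40th percentile on 0 of 4 melanocyte arrays. Macrophage genes were also higher in iMet tumours than in melanocytes, as given above, and their part in the result was not tested.

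Acp5 was far higher in both tumour models than in melanocytes, and its difference between the models did not pass the test. It had a lowest value of 8.67, a median of 9.13 and a highest value of 12.26 in iMet tumours. In iHRAS* tumours it had 6.96, 8.69 and 9.18, and melanocyte arrays 1 to 4 read 4.14, 6.00, 4.70 and 3.85. All 12 tumours lay above every melanocyte array, and 3 of 6 iMet tumours lay above every iHRAS* tumour. Of all probe sets, 26.9% did not overlap between iMet and melanocytes, and 24.8% between iHRAS* and melanocytes. The differences from melanocytes were 5.005 ± 0.668 in iMet tumours (adjusted p = 6.19e-05, and 0.000137 with no filter) and 3.74 ± 0.67 in iHRAS* tumours (adjusted p = 0.000637, and 0.00124 with no filter). All 4 melanocyte arrays were below the 40th percentile, so Acp5 passed the filter there only through the tumours and no fold is given. All 21 macrophage genes tested were also called higher in both models than in melanocytes, with medians of 5.07 in iMet and 4.34 in iHRAS*. Over all genes, 15.9% were called higher in iMet and 17.8% in iHRAS*. In each comparison 14 of the 21 were above the 40th percentile on 0 of 4 melanocyte arrays. Those 14 thus passed the filter only through the tumours, where they are high. The part of macrophage genes in the Acp5 result was not tested. iMet minus iHRAS* was 1.27 ± 0.60 (2.41-fold, interval -0.04 to 2.58, adjusted p = 0.158). Without iMet array 4, the array with the highest value, it was 0.75 (adjusted p = 0.249).

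On iMet array 4 Acp5 was high together with osteoclast genes. Acp5 read 12.26 there, against 6.96 to 10.17 in the other 11 tumours. Ctsk, the collagen-degrading cathepsin of osteoclasts, read 12.44 there, against 8.32 to 11.88 in the others. Mmp9, a matrix metalloprotease, read 12.14 against 7.61 to 9.99. The transcription factor Nfatc1, which directs osteoclast formation, read 9.27 against 7.23 to 8.90. The receptor Oscar read 6.55 against 2.05 to 5.51, and the fusion protein gene Ocstamp read 6.66 against 1.05 to 3.89. The receptor Calcr read 5.68, itself below the 40th percentile, against -0.33 to 4.11. These 3 genes did not pass the filter on low signal and were not tested. The integrin Itgb3 was not highest there, with 6.84 against 2.36 to 7.22. Of the 24 genes of the acid phosphatase and osteoclast list with a probe set, 11 (45.8%) had their highest tumour value on iMet array 4, against 8.19% of all genes. Of 23 macrophage genes 9 (39.1%) did so. The array and these genes were chosen after their values were seen, so this is a description of 1 tumour.

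**Figure D4:**
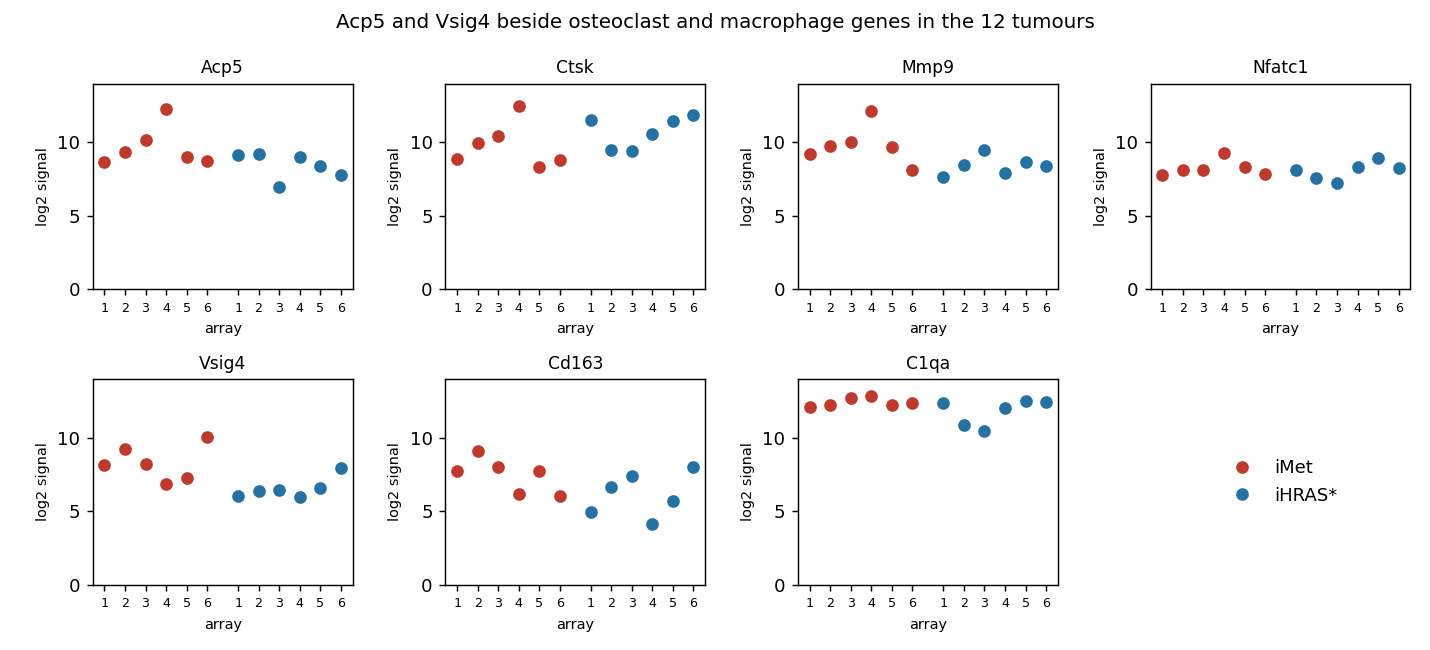
Log2 signal (vertical axis) of Acp5, Vsig4, 3 osteoclast genes and the macrophage genes Cd163 and C1qa on each of the 12 tumour arrays (horizontal axis, iMet left of iHRAS*). Acp5, Ctsk, Mmp9 and Nfatc1 have their highest value on iMet array 4, and Vsig4 has its highest on iMet array 6.

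Between the models the same list of acid phosphatase and osteoclast genes had 2 of 19 higher and 2 lower in iMet, a share near the 20.1% of all genes (10.7% higher and 9.38% lower), with a median difference of -0.01. With no filter 2 of 24 were higher and 1 lower. Acpp, prostatic acid phosphatase, rose by 3.46 ± 0.30 (adjusted p = 4.06e-05), and the macrophage growth factor Csf1 rose by 1.44 ± 0.37 (adjusted p = 0.0172). The integrin Itgb3, used by osteoclasts to attach to bone, fell by 2.67 ± 0.75 (adjusted p = 0.0255), and Acp6, a mitochondrial lysophosphatidic acid phosphatase, fell by 0.72 ± 0.21 (adjusted p = 0.0278). Against melanocytes 7 were higher and 2 lower in iMet tumours (median 0.67), where 34.1% of all genes were called. In iHRAS* tumours 6 were higher and 2 lower (median 0.07), where 38.5% of all genes were called. Of the higher genes, 2 of 7 in iMet and 2 of 6 in iHRAS* were not above the filter level on any melanocyte array. Those genes thus passed the filter on low signal only through the tumours.

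The Acp5 promoter window is shown because MITF, the melanocyte and osteoclast factor, is known to act through the letters TCATGTG, called the M-box. RefSeq lists 3 promoters of Acp5, and the one with a match lies on the minus strand of GRCm38.p6 at chr9:22130549-22130848. Capitals mark CACATGA, the reverse complement, which begins 90 bases before the start site.
Acp5: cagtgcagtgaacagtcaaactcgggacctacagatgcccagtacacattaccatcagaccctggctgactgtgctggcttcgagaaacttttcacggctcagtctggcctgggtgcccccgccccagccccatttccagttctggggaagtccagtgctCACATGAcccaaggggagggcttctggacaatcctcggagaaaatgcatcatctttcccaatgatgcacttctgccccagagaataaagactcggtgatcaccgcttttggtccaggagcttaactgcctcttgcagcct
TCATGTG was found on either strand in 3.77% of all promoters. Mitf itself had 6.80 to 8.21 in iMet tumours and 6.21 to 8.09 in iHRAS* tumours, against 5.38 to 6.02 in melanocytes.

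Vsig4 was higher in iMet than in iHRAS* tumours and lowest in melanocytes. It had a lowest value of 6.84, a median of 8.21 and a highest value of 10.09 in iMet tumours, and 5.95, 6.43 and 7.96 in iHRAS* tumours. Melanocyte arrays 1 to 4 read 5.63, 5.31, 5.81 and 4.64. Of the iMet tumours 4 of 6 lay above every iHRAS* tumour, and all 12 tumours lay above every melanocyte array. Such a lack of overlap with melanocytes, in either direction, was found for 26.9% of all probe sets in iMet and 24.8% in iHRAS*. Of the iHRAS* arrays 4 of 6 exceeded the 40th percentile, so the difference between the models rests partly on low signal. iMet exceeded iHRAS* by 1.74 ± 0.52 (3.33-fold, adjusted p = 0.0338). That call was lost when any of 9 single tumours was left out (iMet array 1, 2, 3 or 6, or iHRAS* array 1, 2, 3, 4 or 5), with adjusted p up to 0.0704 and differences of 1.38 to 2.03 over all 12 such fits. It was also lost with no filter on low values (adjusted p = 0.0587). iMet exceeded melanocytes by 2.96 ± 0.54 (adjusted p = 0.000845, and 0.00166 with no filter). iHRAS* minus melanocytes was 1.22 ± 0.54 (interval 0.06 to 2.38, adjusted p = 0.0881), without overlap. All 4 melanocyte arrays were below the 40th percentile, so Vsig4 too passed the filter there only through the tumours.

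As sets, macrophage and endothelial genes differed between the models in the same direction as Vsig4. Single arrays picked by their Vsig4 signal are described here without a test. The macrophage mean was 9.79 on iMet array 4, the lowest iMet tumour in Vsig4, and 9.39 on iMet array 6, the highest. On iHRAS* array 6, the highest iHRAS* tumour in Vsig4, that mean was 9.19, also the highest of its group. All 21 macrophage genes tested had a positive difference between iMet and iHRAS* tumours, 6 of them were called higher and 0 lower, where 10.7% of all genes were called higher and 9.38% lower, and the median was 0.94. Of 12 endothelial genes 8 were called higher and 0 lower, with a median of 1.10. The 6 macrophage genes called higher were Cx3cr1, Folr2, Itgam, Lyve1, Mrc1 and Msr1. Marco and Clec4f, which mark some tissue macrophages, were below the 40th percentile on every tumour array and were not tested. Without iHRAS* arrays 2 and 3, the pair lowest in macrophage genes, Vsig4 differed by 1.67 (adjusted p = 0.0866), 3 macrophage genes were called higher and 0 lower, and their median was 0.24. That pair was picked after the data were seen. Without iHRAS* arrays 5 and 6, the pair low in Xist, Vsig4, an X-linked gene, differed by 2.09 (adjusted p = 0.0309). iHRAS* array 4 read 5.95 for Vsig4, the lowest of the 12 tumours, and 12.04 for C1qa. The part of macrophage or endothelial content in the Vsig4 difference was not tested. Acp5 and Vsig4 peaked in different tumours, since iMet array 6 read 10.09 for Vsig4 and 8.69 for Acp5, and iMet array 4 read 6.84 and 12.26.

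Complement receptors and B7 family genes, the relatives of Vsig4 by function, were tested for 11 of 21 listed genes, 18 having a probe set. Between the models 3 were higher and 1 lower in iMet, where 20.1% of all genes were called, with a median difference of 0.04. With no filter 1 of 18 was higher and 2 lower. Itgam, the alpha chain of complement receptor 3, rose by 1.47 ± 0.34 (adjusted p = 0.0104). The anaphylatoxin receptors C3ar1 and C5ar1 rose by 0.95 ± 0.29 (adjusted p = 0.0379) and 1.01 ± 0.32 (adjusted p = 0.0463). Icosl, a costimulatory ligand of T cells, fell by 0.97 ± 0.23 (adjusted p = 0.0127). Against melanocytes, 7 of 11 were higher and 0 lower in each tumour model, where 34.1% and 38.5% of all genes were called, with medians of 2.12 in iMet and 2.28 in iHRAS*, and 1 was lower in each at an unadjusted p under 0.05. Of the 7, 6 in iMet and 5 in iHRAS* were above the 40th percentile on 0 of 4 melanocyte arrays.

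The Vsig4 promoter window is shown for the letters GAGGAA, the core of many sites of the myeloid factor PU.1. It lies on the minus strand of GRCm38.p6 at chrX:96293389-96293688, with the matches, which begin 155 and 53 bases before the start site, in capitals.
Vsig4: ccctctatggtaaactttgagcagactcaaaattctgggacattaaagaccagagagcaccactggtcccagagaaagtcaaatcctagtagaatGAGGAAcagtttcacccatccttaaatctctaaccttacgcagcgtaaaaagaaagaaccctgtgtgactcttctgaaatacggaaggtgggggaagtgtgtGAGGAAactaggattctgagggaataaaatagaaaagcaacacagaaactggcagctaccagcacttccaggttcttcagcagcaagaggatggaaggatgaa
GAGGAA was found on either strand in 28.3% of all promoters, so such a match is common.

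Hsf1 gave no value, and a list of its known chaperone targets, with the related factors Hsf2 and Hsf4 and the regulator Hsbp1, is given in its place. Of 23 listed genes 22 had a probe set and 20 were tested, without Hsf2 and Hsf4. Between the models 1 was higher and 1 lower in iMet, where 20.1% of all genes were called, with a median difference of 0.31. Hspa4l, a member of the Hsp110 chaperones, rose by 1.82 ± 0.24 (3.53-fold, adjusted p = 0.000497), and Cryab, a small heat shock protein, fell by 2.03 ± 0.38 (adjusted p = 0.00363). Against melanocytes 2 were higher and 3 lower in iMet tumours, where 34.1% of all genes were called. In iHRAS* tumours 0 were higher and 3 lower, where 38.5% of all genes were, or 1 and 5 at an unadjusted p under 0.05. These are transcript levels and not a reading of Hsf1. The letters GAANNTTC, the inner unit of the heat shock element, were searched in the 18 listed genes with a promoter window. They were found in 11 of 18 (61.1%), against 9.04% of all genes. The list was chosen for known Hsf1 targets, so a high share was likely from the start and is no result of these samples.

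Genes whose signal most resembled each candidate were taken over the 12 tumours, by Pearson's r after each group's mean was removed, among 8057 genes. Zwilch, a kinetochore protein of the complex that recruits dynein, was the nearest to Ndc80 (r = 0.92, and 0.79 without the 2 arrays farthest out), followed by Opa1, Vps26b and Slc25a3 (r = 0.90 each). For Fscn1, by its brightest probe set, the nearest were Ilf2 (0.93, and 0.87 without 2 arrays), Fundc2 (0.88), Ipo4 (0.87) and Taf10 (0.86). For Acp5 they were Capza2 (0.90), Rgs1 (0.89), Atp6v1b2, a subunit of the proton pump, and Rgs2 (0.84 each), and without iMet array 4 and iHRAS* array 3 these were 0.68, 0.81, 0.55 and 0.71. For Vsig4 they were Hexim1 and Nacc2 (0.89 each), Bcam (0.88) and Ppp4r1 (0.86), and without iMet array 6 and iHRAS* array 6 these were 0.80, 0.79, 0.85 and 0.65. These genes were picked as the highest of 8057, so the values describe these arrays and carry no test.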

How the data were processed

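The authors deposited 1 table of log2 signal for 16 arrays and 22690 probe sets, with values of -4.07 to 14.53. Summarisation, normalization and the genome build are not given in the sources used here. The median of an array ran from 6.56 to 7.28, so the log2 values were quantile-normalized, which removes any difference in overall signal. The 64 control probe sets were left out, and the 20380 probe sets with 1 gene symbol in the platform annotation were used. Of these, 20351 matched a RefSeq gene. Probe sets above the 40th percentile on at least 6 of 12 tumour arrays, or 4 of 16 arrays, were tested with limma 3.58.1 in R 4.3.3 (two-sided), at a Benjamini-Hochberg adjusted p of 0.05. iMet and iHRAS* were fitted alone, and the comparisons with melanocytes on all 16 arrays. The script was tested on simulated data.

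Named genes were the candidates, the other Ndc80 subunits, the 4 genes most like each candidate, and in each list up to 4 calls of smallest p between the tumour models with up to 2 the other way. Members and lists were chosen with earlier results of these data known. The number of arrays limits the precision. Alternatives were other scaling, no filter, 1 probe set per gene, a replicate block, another variance model, and arrays left out.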

Additional observations from a re-analysis of the deposited data

Results flagged for a closer look

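Among 21 sets of replicates examined for an array far from its group, 3 had one, and chance gives about 1 in 20 for independent sets. These sets are not independent. Fscn1 probe sets 1416515_at and 1416516_at correlated at r = 0.98 over the tumours with group means taken off, so their flags are not separate. iHRAS* array 4 stood below the other iHRAS* tumours on Fscn1 probe sets 1416515_at (6.48) and 1416516_at (1.66), while 1416514_a_at read 11.16 there. iHRAS* array 6 stood above the others on Vsig4 (7.96). The changes of the tumour models from melanocytes differed by limma for Ndc80 (iMet minus iHRAS* 1.77), Vsig4 (1.74) and Fscn1 by 1448378_at (0.69) and 1416514_a_at (0.53).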

How the results depend on the processing

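Of the results recomputed under each alternative, 671 kept their direction and side of the threshold, or for a count stayed within 1.5 times. A further 27 kept their direction but lost the call, 4 gained one, 8 counts moved further and 1 turned its sign. The last was Ndc80 in iMet minus melanocytes, -0.055 (adjusted p = 0.928) without melanocyte arrays 1 and 3, which was not called on all arrays either. Vsig4 between the tumour models was 1.74 (adjusted p = 0.0587) with no filter and 1.67 (0.0866) without iHRAS* arrays 2 and 3, and 1.38 to 2.03 with 1 array left out. Vsig4 in iHRAS* minus melanocytes was called with each array centred on its median (1.40, adjusted p = 0.0368), which made 2 candidate probe sets higher, and was 0.94 to 1.37 with 1 array left out, called without iMet array 6 (adjusted p = 0.0472), with 1 to 2 higher. With the replicate number as a block it was 0.95 (adjusted p = 0.0451), again 2 higher, Fscn1 1416515_at in iMet minus melanocytes was -1.58 (0.0853), and 1624 probe sets were called between the tumour models, against 2445. The numbers do not pair the samples (r of -0.26 to 0.12 over the 6 iMet and iHRAS* pairs, 1 of which correlated best with its own number), and the block changed no other call of a candidate. Fscn1 1416514_a_at between the tumour models was 0.43 (adjusted p = 0.146) median-centred and 0.51 (0.0602) without iHRAS* arrays 5 and 6. Fscn1 1416515_at in iMet minus melanocytes was -1.53 (0.0572) with no filter, -1.59 (0.125) without melanocyte arrays 1 and 3, -1.47 (0.164) without 2 and 4, and -1.70 to -1.38 with 1 left out. Fscn1 1416516_at was -2.14 to -1.65 there with 1 left out, and in iHRAS* minus melanocytes -3.60 (0.0728) and -3.50 (0.0980) without those melanocyte pairs. With 1 probe set per gene 3404 probe sets were called in iHRAS* minus melanocytes, with 2 candidates lower, and 1 candidate was lower in iMet minus melanocytes, which follows from fewer probe sets tested. Without melanocyte arrays 2 and 4 iHRAS* minus melanocytes had 3263 calls, against 5256. The cause of the other shifts was not tested. Of all calls between the tumour models 56.7% were higher in iMet, and 82.2% with the deposited scaling, which moved the median of all probe sets to 0.26. Higher shares were 45.1% and 41.1% in iMet and iHRAS* minus melanocytes, 56.0% and 32.5% as deposited, and 33.1% and 30.7% median-centred. Kinetochore genes in iMet minus melanocytes were 6 higher and 0 lower as deposited, and in iHRAS* minus melanocytes 0 higher and 4 lower with the block. Signal below the 40th percentile is low, which limits the precision of differences that rest on it. Such signal was found for Ndc80 in iHRAS*, for Acp5 and Vsig4 in melanocytes, and for Vsig4 on some iHRAS* arrays.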
